A study of Mus musculus with 2 samples.

Results

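The 10 genes described here are the transcription factors *Snai1*, *Snai2*, *Zeb1*, *Zeb2*, *Twist1* and *Twist2* and the markers *Cdh1*, *Epcam*, *Cdh2* and *Vim*, chosen by gene symbol, and all 10 were found among the 23183 genes of the deposited tables. The study asked which genes *Runx3* regulates in mouse lung cancer cells with active K-Ras, and measured mRNA by RNA-seq in 1 library of KPR- cells and 1 library of KPR_restored cells. Both come from lines grown out of trypsinized lung tumors of mice whose alleles were LSL-G12D/+ at *K-Ras*, flox/flox at *p53* and flox/FSF at *Runx3*, beside a Tomato reporter and Flp ERT2, and that received Cre by nasal adenovirus from a *CMV* promoter. Cre switched on K-Ras, removed *p53* and the floxed *Runx3* allele and labelled the cells in both groups, while the remaining *Runx3* allele stayed off behind a Frt-Stop-Frt cassette. KPR- cells are labelled RUNX3 -/- and 0 h. KPR_restored cells are labelled RUNX3 -/+ and 16 h, and in them 4-hydroxytamoxifen (4-OHT) activates the Flp recombinase, which takes the cassette out. The labels list 1 μM 4-OHT for both libraries, whereas the design text and the study's methods give 4-OHT as the step that turns KPR- cells into KPR_restored cells, so whether the KPR- library was treated is not settled. In addition, 0 libraries of cells that received 4-OHT without restoration were analysed, so the effects of *Runx3*, of 4-OHT and of hours in culture cannot be told apart. With 1 library a group, no difference has a replicate check and no p-value was computed.

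Epithelial-mesenchymal transition (EMT) is the loss of the adhesive, polarized epithelial state in favour of a motile mesenchymal one, used in development and by carcinoma cells that invade. SNAIL, ZEB and TWIST proteins drive it. The zinc finger factors of the SNAIL and ZEB families bind E-box sequences such as CACCTG and repress *Cdh1* and other junction genes, and the TWIST proteins are basic helix-loop-helix factors that also bind E-boxes. *Cdh1* (E-cadherin) and *Epcam* mark epithelial cells, *Cdh2* (N-cadherin) and *Vim* (vimentin) mark mesenchymal cells, and lung carcinoma cell lines often express markers of both kinds.

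Promoter sequences are shown for *Twist2* and its paralog *Twist1*, because the first differed between the libraries by over the threshold and the second did not, and for *Snai1* and *Epcam*, because their promoters hold the SNAIL and ZEB motif. They are the 250 bases before the RefSeq start site (build GRCm38.p6, all on the plus strand), at chr1:91801211-91801460 for *Twist2*, chr12:33957421-33957670 for *Twist1*, chr2:167537945-167538194 for *Snai1* and chr17:87635729-87635978 for *Epcam*. Capitals mark each match on either strand to CACCTG, the E-box of SNAIL and ZEB proteins, and to spellings of the motif that RUNX proteins bind, TGTGGT and its variant TGCGGT.
Twist2: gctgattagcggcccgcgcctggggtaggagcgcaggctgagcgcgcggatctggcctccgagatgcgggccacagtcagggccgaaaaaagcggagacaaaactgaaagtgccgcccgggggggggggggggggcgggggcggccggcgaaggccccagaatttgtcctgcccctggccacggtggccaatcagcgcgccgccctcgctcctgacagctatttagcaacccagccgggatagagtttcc
Twist1: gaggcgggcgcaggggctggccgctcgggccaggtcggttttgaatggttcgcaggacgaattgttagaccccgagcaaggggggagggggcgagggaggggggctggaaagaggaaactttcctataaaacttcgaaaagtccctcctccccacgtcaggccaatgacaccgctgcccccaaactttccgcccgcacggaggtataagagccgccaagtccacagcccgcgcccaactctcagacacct
Snai1: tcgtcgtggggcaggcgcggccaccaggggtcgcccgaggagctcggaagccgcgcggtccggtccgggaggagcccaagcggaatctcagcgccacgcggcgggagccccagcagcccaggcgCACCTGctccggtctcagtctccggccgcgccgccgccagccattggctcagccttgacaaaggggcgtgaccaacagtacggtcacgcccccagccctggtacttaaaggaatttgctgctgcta
Epcam: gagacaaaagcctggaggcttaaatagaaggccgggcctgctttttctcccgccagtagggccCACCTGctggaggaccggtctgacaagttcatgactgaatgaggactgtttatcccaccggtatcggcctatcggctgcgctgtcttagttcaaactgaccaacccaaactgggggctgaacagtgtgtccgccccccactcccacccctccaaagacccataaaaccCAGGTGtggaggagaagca
The *Epcam* window holds CACCTG on the plus strand from position -187 and on the minus strand from position -19, counted from the start site, and the *Snai1* window holds it from position -126. Of 32851 windows of the same length, 17.2% hold CACCTG on either strand and 66.2% hold CANNTG, the general E-box, which includes the SNAIL and ZEB motif. Of the RUNX spellings, TGTGGT was in 14% and TGCGGT in 5.1% of all windows, and both were in 0 of the 4 shown, and *Twist2* and *Twist1* had 0 matches to any of these motifs. *Snai1* and *Epcam* were picked for holding CACCTG, so their matches cannot be set against the share of all windows. The windows of *Vim* and *Zeb2*, not shown, had 0 matches to these motifs, and *Snai2* had no window. A match is a stretch of letters and not a binding site, and its absence says only that these letters are not in the window.

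The deposited values are FPKM, fragments scaled to transcript length and depth, which allow levels to be compared between genes. Depth, as the scaling factor estimated from the steps of whole fragments in low values, was 21.8 M fragments for KPR- and 22.4 M for KPR_restored. Genes are called expressed here where the mean of the libraries was 1 FPKM or more, which held for 11231 genes, all 10 members included. Differences were taken as log2(FPKM + 0.005) in the library labelled KPR_restored minus that labelled KPR-, and a gene was called at 0.5 or more either way. The 95% intervals come from estimated fragments and cover counting error only. *Runx3* itself had 0.348 and 0.349 FPKM, so its level does not check the labels. All directions below are those of the library labelled KPR_restored.

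Of the 10 genes, *Snai2* and *Twist2* were higher by the threshold and 0 were lower. That is 20% of the genes, against 13.8% of all 23183 genes that were higher and 12.9% that were lower, so the number called is close to the background. Among the expressed genes the shares were 12.1% and 9.29%. The counting interval excluded 0 for 7 of the 10 genes, near the 67.3% of expressed genes for which it did, since most genes are covered deeply enough for small differences to pass counting error. The median difference was 0.15 over the 10 genes and 0.37 over the 6 factors, against 0.0086 over the expressed genes.

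**Figure D1:**
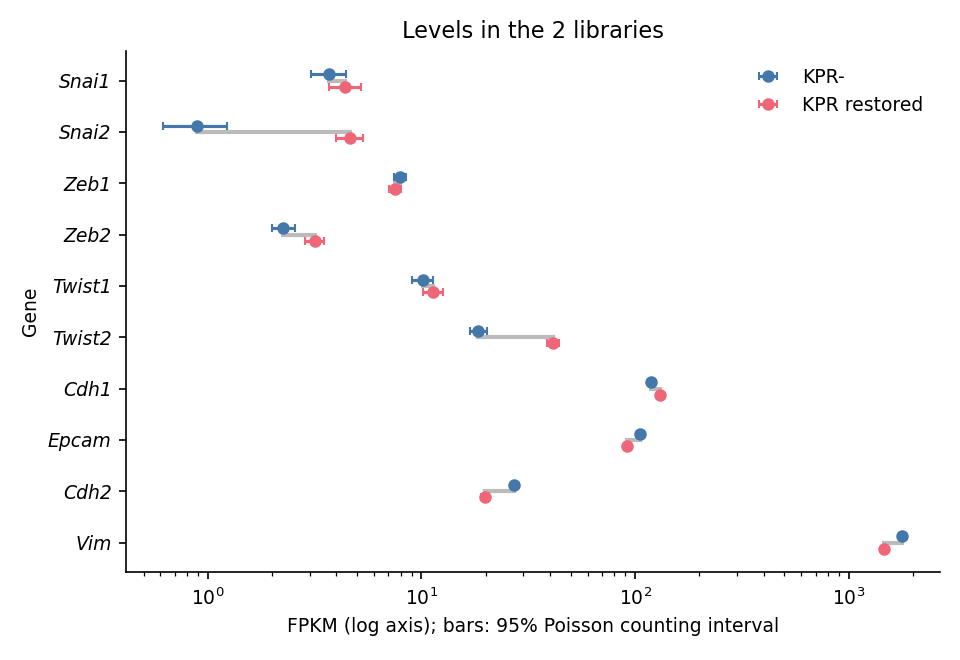
FPKM of the 10 genes (log axis) in the KPR- library (blue) and the KPR_restored library (red), with 95% Poisson counting intervals and a gray bar joining the libraries of each gene. The levels run from 0.887 FPKM for *Snai2* in KPR- to 1777 FPKM for *Vim* in KPR-, and *Snai2* and *Twist2* show the widest gaps between the libraries.

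*Snai2*, which encodes SLUG, the SNAIL family repressor best known from neural crest and basal epithelial cells, is on the plus strand of chromosome 16 (14705852 to 14709385, GRCm38). It stood at 0.887 FPKM in KPR- (about 35 fragments) and at 4.64 FPKM in KPR_restored (about 188 fragments). The Poisson limits of these levels, 0.618 to 1.23 FPKM and 4.00 to 5.35 FPKM, did not overlap. The level was 5.23-fold higher, 2.38 on the log2 scale (counting interval 1.86 to 2.95), which placed *Snai2* 33rd in the ranking of rises among the 11231 expressed genes. *Snai2* counts as expressed only through its KPR_restored level, so this rank is no separate support for the difference. Just 1 transcript of 2021 bases is annotated, so isoform choice does not enter the fragment estimate.

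*Snai1*, which encodes SNAIL, the prototype repressor of E-cadherin, is on the plus strand of chromosome 2 (167538195 to 167542814). It had 3.68 FPKM in KPR- and 4.39 FPKM in KPR_restored, from about 113 and 139 fragments. The counting interval around its log2 difference of 0.26 ran from -0.11 to 0.63 and includes 0. *Snai2* was thus the lowest of the 10 genes in KPR- and reached the level of *Snai1* in KPR_restored, where the Poisson limits of the 2 genes overlapped.

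*Twist2*, also called Dermo1, a factor of mesenchymal and dermal development, is on the plus strand of chromosome 1 (91801461 to 91848028), and its promoter is printed above. It had 18.5 FPKM in KPR- and 41.2 FPKM in KPR_restored, from about 450 and 1034 fragments. The level was 2.23-fold higher, 1.16 on the log2 scale (counting interval 1.00 to 1.32), and 225th in the same ranking of rises. In KPR- *Twist2* stood below *Cdh2*, and in KPR_restored it stood above *Cdh2*. An antisense gene, *Gm29100*, and a sense intronic gene, *Gm29101*, are annotated across the *Twist2* locus and were not analysed here. The library kit keeps strand, but whether the FPKM estimation used it is not given in the sources used here.

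*Twist1*, a mesoderm factor and a classical inducer of EMT in metastasis, is on the plus strand of chromosome 12 (33957671 to 33959829). It had 10.1 FPKM in KPR- and 11.3 FPKM in KPR_restored, from about 313 and 360 fragments. The counting interval around its log2 difference of 0.16 ran from -0.063 to 0.38, so a difference was not detectable beyond counting error.

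*Zeb1*, the ZEB repressor most often tied to carcinoma invasion, had 7.93 FPKM in KPR- and 7.50 FPKM in KPR_restored. This is -0.079 on the log2 scale (counting interval -0.21 to 0.051), with 0 inside the interval. *Zeb2*, its paralog on the minus strand of chromosome 2 (44983632 to 45117395), had 2.26 FPKM in KPR- and 3.17 FPKM in KPR_restored, from about 266 and 385 fragments. *Zeb2* thus differed by 0.49 on the log2 scale (counting interval 0.26 to 0.72), just under the threshold of 0.5. The antisense gene *Zeb2os* at the same locus had 0.181 and 0.176 FPKM.

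The FPKM of the 6 factors summed to 43.3 in KPR- and 72.2 in KPR_restored. *Twist2* made up 42.6% of the sum in KPR- and 57.0% in KPR_restored, and *Snai2* 2.05% and 6.42%. Without *Twist2* and *Snai2* the sums were 23.99 and 26.4 FPKM, so most of the gap lay in these 2 genes.

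Among the markers, *Cdh1* encodes E-cadherin, the calcium-dependent adhesion protein of epithelial adherens junctions, and is on the plus strand of chromosome 8 (106603351 to 106670246). It had 119 FPKM in KPR- and 130.2 FPKM in KPR_restored, higher by 0.13 on the log2 scale (counting interval 0.091 to 0.17). *Epcam*, an epithelial surface glycoprotein gene on chromosome 17 from 87635979 to 87651129 (plus strand), had 105 FPKM in KPR- and 91.6 FPKM in KPR_restored, which is -0.20 on the log2 scale (interval -0.26 to -0.14). The epithelial markers thus differed in opposite directions, each by less than the threshold. Both were among the more abundant mRNAs, with 2.99% of all genes above *Cdh1* and 3.42% above *Epcam* in KPR-.

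*Cdh2*, which encodes N-cadherin, the neural and mesenchymal cadherin, had 27.1 FPKM in KPR- and 19.8 FPKM in KPR_restored. The level was 1.37-fold lower, -0.46 on the log2 scale (interval -0.54 to -0.37), and 1213th in the ranking of falls among expressed genes. *Vim*, which encodes the type III intermediate filament protein vimentin, is on the plus strand of chromosome 2 (13573927 to 13582826) and had 1777 FPKM in KPR- and 1464 FPKM in KPR_restored. Its difference was -0.28 on the log2 scale (interval -0.29 to -0.26). *Vim* was the 24th most abundant of all genes in KPR- and the 51st in KPR_restored, and stood above *Cdh1* and *Epcam* in both libraries. In RNA from whole cultures, fewer cells of a kind and less RNA per cell cannot be told apart, so whether the same cells hold *Cdh1* and *Vim* transcripts is not shown by these values.

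**Figure D2:**
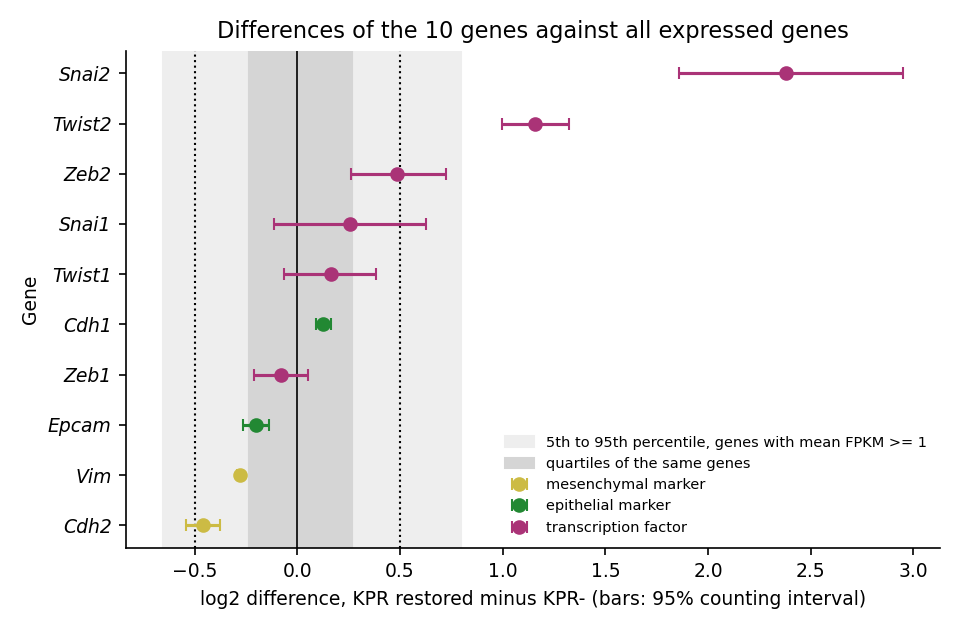
Log2 difference of FPKM + 0.005 (KPR_restored minus KPR-) of the 10 genes with 95% counting intervals, over the quartiles (dark gray, -0.23 to 0.27) and the 5th to 95th percentiles (light gray, -0.65 to 0.80) of the expressed genes. *Snai2* at 2.38 and *Twist2* at 1.16 lie beyond the light band, and the other 8 genes lie within the dotted lines at 0.5 and -0.5.

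Ratios within a library do not depend on how the libraries are scaled to each other. *Snai2* had 0.241 times the FPKM of *Snai1* in KPR- and 1.06 times in KPR_restored, a 4.38-fold higher ratio with an exact conditional 95% counting interval of 2.77 to 6.97. *Twist2* had 1.82 times the FPKM of *Twist1* in KPR- and 3.64 times in KPR_restored, a 2.0-fold higher ratio with an interval of 1.65 to 2.42. *Zeb2* had 0.285 times the FPKM of *Zeb1* in KPR- and 0.422 times in KPR_restored, a 1.48-fold higher ratio with an interval of 1.24 to 1.79. In each of these 3 pairs the member numbered 2 was thus higher relative to its paralog in KPR_restored, though *Zeb2* itself differed by less than the threshold. How often other paralog pairs differ in this way was not tested. *Snai1*, *Zeb1* and *Twist1* themselves differed by less than counting error.

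*Cdh1* had 4.39 times the FPKM of *Cdh2* in KPR- and 6.59 times in KPR_restored, a 1.5-fold higher ratio with an interval of 1.41 to 1.60. The ratio of *Vim* to *Epcam* was 16.9 in KPR- and 15.98 in KPR_restored, and the ratio of *Vim* to *Cdh1* was 14.9 and 11.2. The library with the higher *Snai2* and *Twist2* also had the higher ratio of E-cadherin to N-cadherin mRNA, while *Cdh1* and *Cdh2* each differed by less than the threshold. Whether these factors bear on the ratio was not tested.

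**Figure D3:**
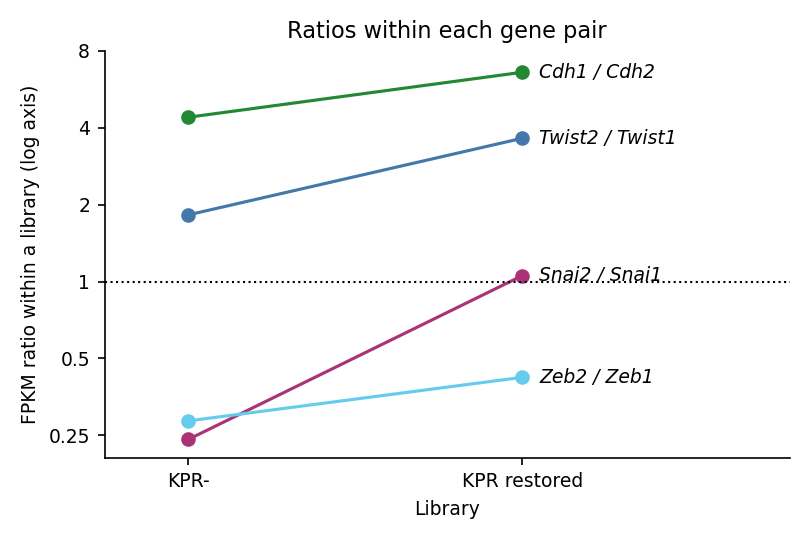
Ratio of FPKM (log axis) within each library for *Snai2* to *Snai1*, *Zeb2* to *Zeb1*, *Twist2* to *Twist1* and *Cdh1* to *Cdh2*, in KPR- (left) and KPR_restored (right), with 1 point a library and the dotted line at equal levels. All 4 ratios are higher in KPR_restored, and *Snai2* to *Snai1* goes from 0.241 to 1.06.

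Other transcription factors of EMT were described by a list of 16, of which 12 were expressed. Of these 12, 5 were higher and 1 was lower by the threshold, against 12.1% and 9.29% of all expressed genes. Over all 16 listed, 6 were higher and 2 were lower, against 13.8% and 12.9% of all genes. *Sox9*, a factor of distal lung progenitors, had 13.6 FPKM in KPR- and 29.6 FPKM in KPR_restored, a log2 difference of 1.13. *Fosl1*, an AP-1 subunit downstream of RAS signaling, had 15.2 and 24.7 FPKM, and *Prrx1* and *Sox4* were also higher. *Snai3*, the third SNAIL family gene, had 3.21 FPKM in KPR- and 1.55 FPKM in KPR_restored, a log2 difference of -1.05 opposite in sign to that of *Snai2*. *Hmga2*, a chromatin protein gene, had 186 and 148 FPKM. The median over the 12 genes was 0.070.

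The partners that SNAIL, ZEB and TWIST proteins use to repress, and the enzymes that mark them for degradation, differed less. Of the 22 expressed genes from a list of 23, 0 were past the threshold, against 21.4% of all expressed genes either way, and their median was -0.019. Over all 23 listed, 0 were higher and 1 was lower, against 13.8% and 12.9% of all genes. The lower gene, *Prkd1*, had about 9 and 6 fragments and a counting interval that includes 0. The 2 largest falls and rises of log2(FPKM + 1) were those of *Suv39h1*, a histone methyltransferase, with 54.3 and 41.6 FPKM, *Ezh2*, the catalytic subunit of Polycomb complex PRC2, with 53.5 and 43.8 FPKM, *Fbxl5* with 37.8 and 47.6 FPKM, and *Ppil2* with 23.1 and 27.8 FPKM. The TGF-beta ligands, receptors and SMADs, which include the best known inducers of EMT, were all expressed. Of these 14 genes, 0 were higher and 2 were lower, against 12.1% and 9.29% of expressed genes, with a median of -0.16, and *Tgfb2* had 2.82 FPKM in KPR- and 1.86 FPKM in KPR_restored.

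Of 16 regulators of the epithelial programme, 11 were expressed. Of these 11, 4 were higher and 0 were lower, against 12.1% and 9.29% of expressed genes, with a median of 0.35. Over all 16, 5 were higher and 3 were lower, against 13.8% and 12.9% of all genes. The 3 lower genes, *Ovol2*, *Grhl3* and *Elf5*, had a mean under 1 FPKM and counting intervals that include 0, and *Ovol2* stood at 1.19 FPKM in KPR- and 0.740 FPKM in KPR_restored. *Klf4*, a zinc finger factor of epithelial differentiation, had 21.1 FPKM in KPR- and 44.7 FPKM in KPR_restored, a log2 difference of 1.08. *Ovol1*, a factor that counters ZEB genes in epithelia, had 0.951 and 2.11 FPKM, from about 57 and 131 fragments. It counts as expressed only through its KPR_restored level. *Klf5* and *Foxa2* were the other higher genes. *Grhl2*, an activator of *Cdh1*, had 5.27 and 4.63 FPKM, and *Cebpa* had 13.9 and 12.1 FPKM.

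Of 40 epithelial junction and surface genes, 39 were expressed, of which 34 differed by less than the threshold, 2 were higher and 3 were lower, against 12.1% and 9.29% of expressed genes, with a median of -0.069. Over all 40 the counts were also 2 and 3, against 13.8% and 12.9% of all genes. *Cldn4*, a claudin of tight junctions, had 107 FPKM in KPR- and 202 FPKM in KPR_restored, and *Cldn1* had 2.28 and 3.98 FPKM. The lower genes included *Ppl* (periplakin, of desmosomes), with 43.9 and 24.2 FPKM, and *Krt7*, a keratin of simple epithelia, with 1229 and 743 FPKM.

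Of 36 mesenchymal markers, 17 had a mean FPKM under 1. Of the other 19, 6 were lower and 0 were higher by the threshold, against 9.29% and 12.1% of expressed genes, with a median of -0.38. Over all 36, 13 were lower and 1, *Dcn*, was higher, against 12.9% and 13.8% of all genes. Of these 13, *Acta2*, *Col1a2*, *Col3a1*, *Postn* and *Pdgfrb* had a mean under 1 FPKM and counting intervals that include 0. *Col1a1*, the main chain of type I collagen, had 12.2 FPKM in KPR- and 4.21 FPKM in KPR_restored, a log2 difference of -1.53. *Sparc*, a matrix glycoprotein gene, had 190 and 101 FPKM, a log2 difference of -0.91. The other expressed markers that were lower were *Axl*, *Itgb1*, *Loxl2* and *Col6a1*. *Itga5*, an integrin subunit gene, had 36.2 and 39.6 FPKM. *Vim* and *Cdh2* thus differed in the same direction as this list's median, and each by less than the threshold.

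Among the other classical and related cadherins, 6 of a list of 20 were expressed, of which 3 were lower and 0 were higher, against 9.29% and 12.1% of expressed genes. Over all 20, 5 were lower and 4 were higher, against 12.9% and 13.8% of all genes, and the 4 higher genes were each listed at 0 in KPR-. Of these 4, *Cdh5*, the cadherin of endothelium, had 0.141 FPKM in KPR_restored, from about 12 fragments. *Cdh13*, the membrane-anchored T-cadherin, had 15.3 FPKM in KPR- and 8.52 FPKM in KPR_restored, *Cdh24* had 5.06 and 2.98 FPKM, and *Cdh16* was also lower. *Cdh6*, the most abundant of the 6, had 17.1 and 12.3 FPKM. *Cdh3*, which encodes P-cadherin of epithelia, had 8.09 and 8.36 FPKM. *Cdh2* stood above each of these 6 in both libraries, and *Cdh1* above *Cdh2*. Of 13 expressed catenins, nectins and adaptors, 2 were higher and 5 were lower, against 12.1% and 9.29% of all expressed genes. Over all 17 in the tables, 2 were higher and 8 were lower, against 13.8% and 12.9% of all genes. Of these 8, *Ctnna3* and *Cdhr1* had at most about 6 fragments a library and counting intervals that include 0. The lower genes included *Pvrl3* (nectin-3) with 6.85 and 4.10 FPKM and *Pkp4* with 31.6 and 20.7 FPKM. The higher genes were *Pvrl4* (nectin-4) with 1.72 and 3.02 FPKM and *Arvcf* with 2.11 and 3.13 FPKM. *Cbll1*, which encodes the E-cadherin ubiquitin ligase Hakai, had 5.66 and 7.90 FPKM, a log2 difference of 0.48 that is under the threshold. Of 5 expressed intermediate filament genes and vimentin partners, *Lmnb1* and *Lmnb2* were lower and 0 were higher, against 9.29% and 12.1% of expressed genes. Over all 13 listed, 6 were lower and 3 were higher, against 12.9% and 13.8% of all genes. The counting intervals of *Ina*, *Nefm* and *Nefh* among the lower genes, and of *Des* and *Nefl* among the higher genes, include 0. *Prph*, which encodes peripherin, was the other higher gene and had 0.221 and 0.735 FPKM, from about 8 and 27 fragments.

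**Figure D4:**
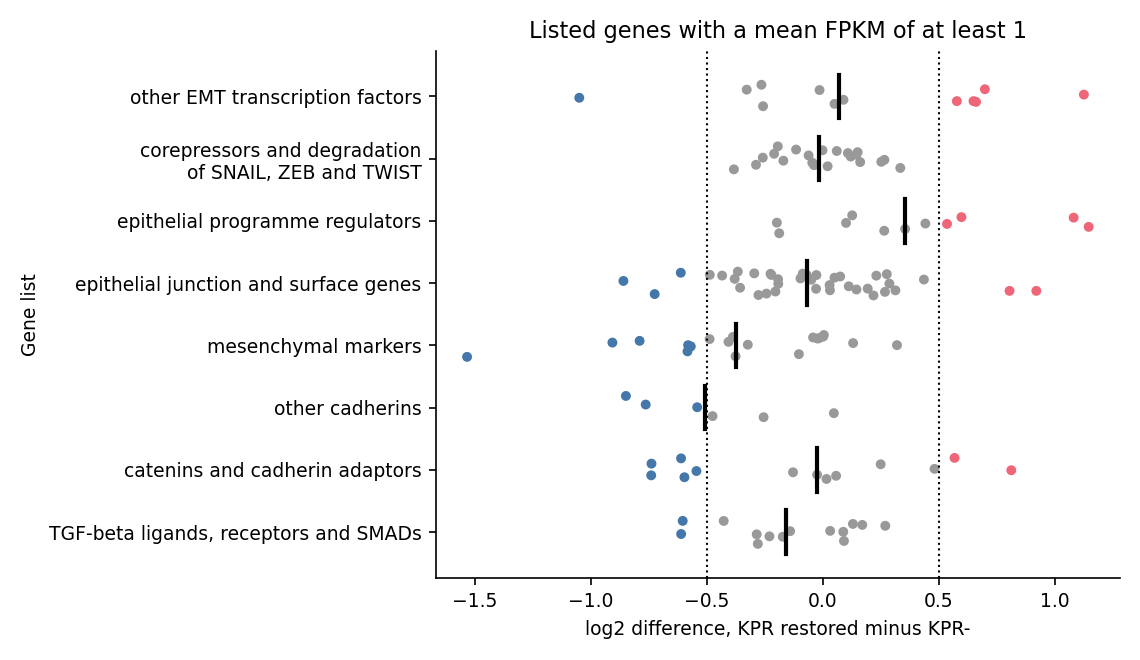
Log2 differences (KPR_restored minus KPR-) of the expressed genes of 8 lists, cell type markers and intermediate filament genes left out, with 1 point a gene, red at 0.5 or more, blue at -0.5 or less and gray between, and a black bar at each median. The medians of these 8 lists run from -0.51 for other cadherins to 0.35 for regulators of the epithelial programme.

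Markers of other cell types that could stay in a tumor culture were low. Of the 8 fibroblast markers, 7 had a mean FPKM under 1, *Lum* and *Tcf21* were listed at 0 in both libraries, and *Col1a1* made up most of the list's sums of 12.7 FPKM in KPR- and 5.35 FPKM in KPR_restored. By the threshold 4 of the 8 were lower and 1 was higher, against 12.9% and 13.8% of all genes. Of the lower genes, *Col1a2*, *Col3a1* and *Pdgfrb* had at most about 5 fragments a library and counting intervals that include 0. The higher gene, *Dcn* (decorin, a matrix proteoglycan of fibroblasts), had 0.173 FPKM in KPR- and 0.742 FPKM in KPR_restored, from about 6 and 26 fragments, and *Pdgfra* had 0.273 and 0.363 FPKM. Of the 8 leukocyte markers, *Adgre1*, *Lyz2* and *Cd3e* were listed at 0 in both libraries and *Ptprc* in KPR-, while *Cd68* had 3.08 and 6.78 FPKM and *Csf1r* 2.68 and 1.19 FPKM, with list sums of 5.81 and 7.98 FPKM. The 8 endothelial markers summed to 1.28 and 2.24 FPKM, mostly from *Kdr* with 1.10 and 2.05 FPKM. Of 14 lung lineage markers, *Sftpc*, *Sftpb* and *Scgb1a1* were listed at 0 in both libraries, and *Nkx2-1* had 0.0444 and 0.0216 FPKM, so these defining markers were absent or near 0 in cells labelled as lung cancer. *Aqp5* had 146 and 106 FPKM, *Abca3* had 18.2 and 14.6 FPKM, and *Foxj1* had 2.78 and 0.656 FPKM. The part of other cells in the differences of *Snai2* and *Twist2* was not tested.

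**Figure D5:**
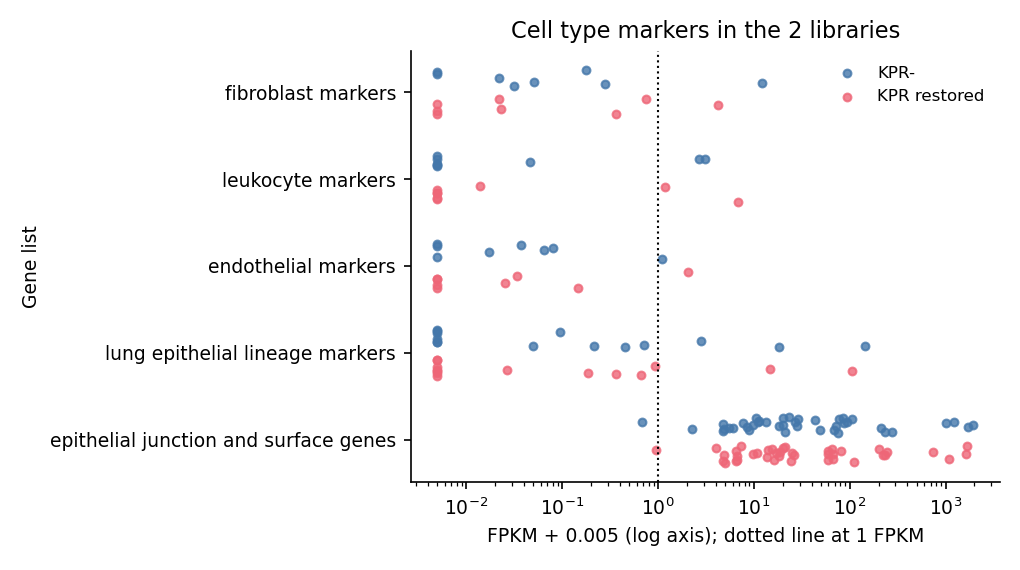
FPKM + 0.005 (log axis) of the cell type markers and, for scale, the epithelial junction and surface genes, with 1 point a gene in KPR- (blue) and KPR_restored (red). Most fibroblast, leukocyte and endothelial markers lie under the dotted line at 1 FPKM, and 39 of the 40 epithelial genes have a mean at or above it.

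Differences also varied with transcript length. The median difference of expressed genes within 20% of a gene's transcript length was 0.091 at the 1329 bases of *Twist2* and -0.10 at the 5801 bases of *Zeb1*. Centred on genes of similar length, *Snai2* had 2.30, *Twist2* 1.07, *Zeb2* 0.58 and *Cdh2* -0.42. *Zeb2* was then past the threshold as well, which makes 3 of the 10 genes higher. The part of transcript length in these differences was not tested further.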

How the data were processed

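Poly(A) RNA was made into directional libraries and sequenced from paired ends. The authors trimmed the reads, mapped them with TopHat (mm10 per the labels) and estimated FPKM values with Cufflinks. Their methods also name a geometric normalization of read counts with EdgeR. Whether the deposited values include it is not stated. Versions and the annotation are not given in the sources used here. There is 1 FPKM value per gene and library. The members and gene lists were chosen with earlier results of these data known. Some lists share genes, such as *Col1a1* in the mesenchymal and fibroblast lists.

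Gene positions and transcript lengths came from GENCODE M21 (GRCm38), to which 22156 symbols matched directly and 647 through a synonym. Fragments were estimated from FPKM, the effective length of the longest transcript with a RefSeq counterpart, and a depth and mean fragment length (212 bases) that brought the low values of 3567 genes with a single transcript nearest to whole fragments. Of these values between 0.5 and 5.5 fragments, 80.7% in KPR- and 82.6% in KPR_restored were at most 0.1 from a whole number, against 20% for values spread evenly. Counts so estimated are upper values for genes with shorter transcripts. Intervals are 95% Clopper-Pearson limits for differences, exact Poisson limits for levels and exact conditional limits for ratios. The depth estimate and intervals were tested on simulated libraries. No test between the conditions was made.

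The genes named are the 10 members, the largest changes of log2(FPKM + 1) in each list (2 up and 2 down, among genes with a mean of 1 FPKM or more), and cell type markers at that level. *Prrx1*, *Sox4*, *Klf5*, *Foxa2*, *Axl*, *Itgb1*, *Loxl2*, *Col6a1*, *Cdh5*, *Cdh6*, *Cdh16*, *Ovol2*, *Grhl3*, *Elf5*, *Prph* and the cell type markers near 0 were named after their values were seen. So were *Arvcf*, *Prkd1*, *Acta2*, *Postn*, *Ctnna3*, *Cdhr1*, *Ina*, *Nefm*, *Nefh*, *Des* and *Nefl*. Some listed genes are counted but not reported by name here. Promoter windows came from RefSeq (GRCm38.p6), which matched 6 of the 10 genes. Alternatives were other pseudocounts, a filter, a threshold, scalings and transcript lengths. The software was Python 3.11.15 with scipy 1.17.1, numpy 2.4.6, matplotlib 3.10.9 and pandas 2.3.3.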

Additional observations from a re-analysis of the deposited data

How the results depend on the processing

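All 10 members passed the filter on mean FPKM, so it could not change their counts. *Snai2* and *Twist2* were the 2 members higher by the threshold, and 0 were lower, under pseudocounts of 0.1 and 1 and a threshold of 1. The same held with equal totals or upper quartiles and with centring on the median gene. These scalings shifted all differences by at most 0.042. With a pseudocount of 1, the difference of *Snai2* was 1.58 in place of 2.38. With the shortest coding transcript the fragments of *Zeb2* could not be estimated. Centring on genes of similar transcript length, added after the values were seen, gave 3 higher members. Of 36 mesenchymal markers, 13 were lower and 1 was higher without a filter, against 6 and 0 with a mean FPKM of at least 1, and 6 were lower with a pseudocount of 1 and with a threshold of 1. At that threshold, 0 of the epithelial junction and surface genes were higher and 0 were lower. The filter and the pseudocount remove or shrink the differences of low genes. No paired analysis was possible because there is 1 library a group. Counting error, which depth sets, is widest for *Snai2* and *Snai1*.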
